A study of Mus musculus with 6 samples.

Results

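The report concerns 9 genes of acute-phase and mucosal defence, chosen by gene name out of the 21700 genes of the deposited table: the serum amyloid genes Saa1, Saa2 and Saa3, the orosomucoid genes Orm1 and Orm2, haptoglobin (Hp), lipocalin 2 (Lcn2), the polymeric immunoglobulin receptor (Pigr) and beta-defensin 1 (Defb1). The study measured RNA of biliary epithelial cells, which line the bile ducts, in 6 libraries, 3 of them made outside pregnancy and 3 at dpc8 of pregnancy (8 days post coitum). All mice were female, WT (wild type) and of strain C57BL/6, and the labels name no treatment and no age. After digestion of the liver and removal of the parenchymal cells, biliary cells were obtained by flow cytometric sorting, and the labels do not say which surface proteins the gate used. Nothing in the labels says that libraries of a group came from separate mice, so p-values describe no more than the spread among these libraries, and that spread may be technical.

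Acute-phase proteins are plasma proteins whose synthesis in hepatocytes changes during inflammation, mostly under interleukin 6, acting through STAT3, and interleukin 1, acting through NF-kB and C/EBP factors. Serum amyloid A, orosomucoid and haptoglobin are positive acute-phase proteins in the mouse. Epithelia that face a lumen, bile ducts included, carry a second line of defence in which the polymeric immunoglobulin receptor moves dimeric IgA into the secretion, lipocalin 2 withholds iron from bacteria by binding their siderophores, and defensins damage microbial membranes.

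In these cells the mucosal genes Pigr and Lcn2 were abundant, Hp and Orm1 were low, and the other 5 genes stood at 16 or fewer sequenced fragments summed over either group. Levels are given as FPKM (fragments per kilobase of exon, put on a common scale across libraries by the authors). By mean FPKM over the 6 libraries Pigr ranked 95 and Lcn2 1011 of 21700 genes, Hp 9141 and Orm1 10884, and the other members between 14046 (Orm2) and 16218 (Saa3). Of the 9 genes 4 (Pigr, Lcn2, Hp and Orm1) reached the mean of 1 FPKM required for testing, and 0 of these 4 passed the test of pregnant against non-pregnant. The test was limma on log2(FPKM + 1), with Benjamini-Hochberg adjustment over all 11412 genes tested and a threshold of 0.05, and it called 0.0613% of all tested genes higher and 0.0263% lower in pregnancy. At an unadjusted p under 0.05 it gave 809 genes higher and 719 lower, with Orm1 as the 1 member among them. Of all tested genes 44.8% had a log2 difference (pregnant minus non-pregnant) above 0 and 55.2% below. The members' adjusted p lay between 0.279 (Orm1) and 0.695 (Hp).

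Promoter sequences are shown for Pigr and Lcn2, the members these cells expressed most, and for Saa1 and Saa2, whose near-identity bears on how their reads can be told apart. Each is the 250 bases before a transcription start annotated in RefSeq, 5′ to 3′ on the gene's strand, on GRCm38.p6, the assembly also called mm10. For Lcn2 and Saa2 that start lies inside the GENCODE gene limits given further on, so the Lcn2 window falls within the gene model and the Saa2 window reaches into it. The table used held 6 of the 9 members (not Orm1, Hp or Defb1). Capitals mark matches, on either strand, to the letters GGGNNNNNCC (NF-kB), TTNNGNAA (C/EBP), TTCNNNGAA (STAT) or CACGTG (an E-box).
Pigr: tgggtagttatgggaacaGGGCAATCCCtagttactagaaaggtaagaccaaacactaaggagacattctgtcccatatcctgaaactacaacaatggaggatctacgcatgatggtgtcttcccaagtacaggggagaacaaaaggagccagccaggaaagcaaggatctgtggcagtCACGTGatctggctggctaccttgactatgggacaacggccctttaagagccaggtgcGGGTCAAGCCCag
Lcn2: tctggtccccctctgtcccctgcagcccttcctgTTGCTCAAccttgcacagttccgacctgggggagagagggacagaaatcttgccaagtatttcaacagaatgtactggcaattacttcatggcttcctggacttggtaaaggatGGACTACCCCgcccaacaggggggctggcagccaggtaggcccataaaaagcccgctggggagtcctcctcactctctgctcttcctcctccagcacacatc
Saa1: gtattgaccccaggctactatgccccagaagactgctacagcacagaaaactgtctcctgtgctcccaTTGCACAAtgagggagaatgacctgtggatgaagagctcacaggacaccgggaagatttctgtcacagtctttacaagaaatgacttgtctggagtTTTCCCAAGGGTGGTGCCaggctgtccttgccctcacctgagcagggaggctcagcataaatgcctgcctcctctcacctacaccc
Saa2: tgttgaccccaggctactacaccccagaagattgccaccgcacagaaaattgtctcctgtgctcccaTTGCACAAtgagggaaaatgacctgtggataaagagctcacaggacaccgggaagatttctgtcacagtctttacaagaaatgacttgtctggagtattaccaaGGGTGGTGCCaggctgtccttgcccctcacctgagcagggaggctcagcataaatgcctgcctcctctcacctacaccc

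These windows lie at chr1:130826434-130826683 (Pigr, plus strand), chr2:32387740-32387989 (Lcn2, minus strand), chr7:46742981-46743230 (Saa1, minus strand) and chr7:46751583-46751832 (Saa2, plus strand). The Pigr window held the E-box from 71 to 66 bases before the start, and E-boxes of this kind in the human gene's promoter are known to bind upstream stimulatory factors. Its other capitals are NF-kB letters, with overlapping matches on both strands at its 3′ end. The Lcn2 window held 1 C/EBP and 1 NF-kB match. The Saa1 and Saa2 windows were 94.8% identical, over 251 aligned columns, and shared a C/EBP match and an NF-kB match, while Saa1 held a second C/EBP match directly before its NF-kB letters. Among 32851 promoter windows of the same length, 45.8% held the NF-kB letters, 36.8% the C/EBP letters, 7.02% the STAT letters and 6.02% the E-box. A match of letters is a description of the window and does not show that a factor binds there.

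**Figure D1:**
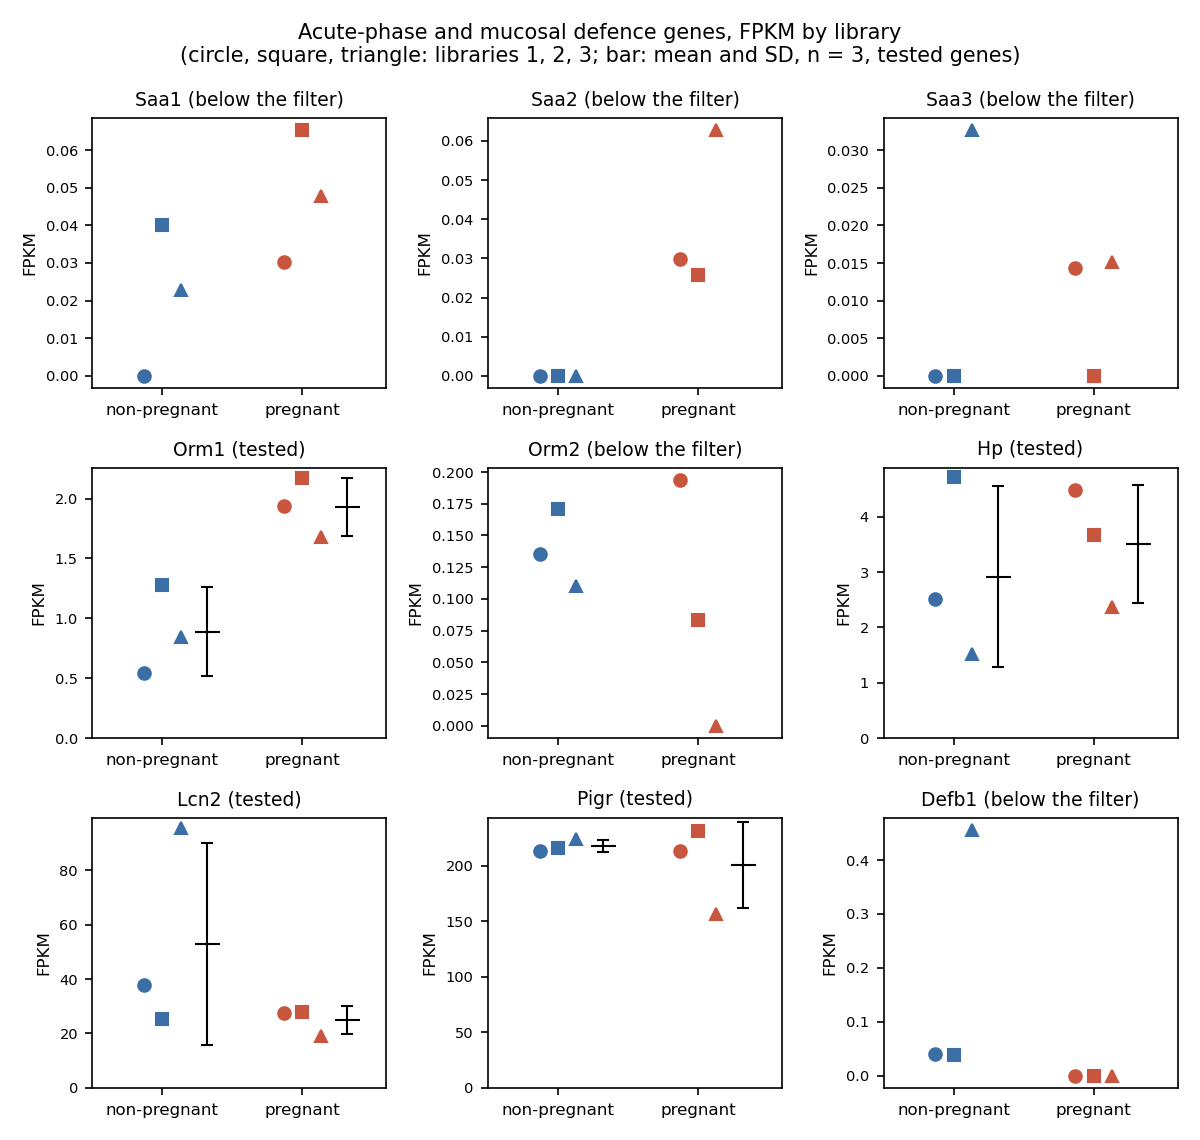
FPKM (vertical axes, linear, each gene with its own scale) of the 9 genes in the 3 non-pregnant (blue) and 3 pregnant (red) libraries, with the mean and SD (n = 3) for the 4 tested genes. Lcn2 and Defb1 were highest in non-pregnant library 3, at 95.3 and 0.456 FPKM, and Orm1 is the tested gene whose groups do not overlap.

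The serum amyloid genes, which encode some of the strongest acute-phase reactants of the mouse, were close to the limit of detection in both groups. Saa1 (ENSMUSG00000074115; chromosome 7, 46740497 to 46742980) had 0, 3 and 2 fragments outside pregnancy (libraries 1 to 3, in this order throughout) and 2, 5 and 3 in pregnancy. Saa2 (ENSMUSG00000057465; chromosome 7, 46751790 to 46754313) had 0, 0 and 0 against 2, 2 and 4 fragments. Saa3 (ENSMUSG00000040026; chromosome 7, 46711998 to 46715700), known in the mouse mainly from extrahepatic cells such as macrophages and epithelia, had 0, 0 and 3 against 1, 0 and 1 fragments. A count of 0 still allows up to 3 fragments in a library, and 5 of 6 libraries for Saa1, 5 of 6 for Saa2 and 6 of 6 for Saa3 were at or under that limit. In FPKM the highest value of the 3 genes in any library was 0.0653, for Saa1 in pregnant library 2.

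Saa2 was the 1 serum amyloid gene whose groups did not overlap, with fragments in all 3 pregnant libraries and none in the non-pregnant ones. How many of all genes below the mean of 1 FPKM separate in this way was not counted, so no share can stand beside it. Summed over each group and set against a limit of 3 fragments for the non-pregnant group, 8 fragments make it at least 3.03-fold higher. That bound takes the 8 fragments as exact and covers counting error of the non-pregnant group alone. An exact two-sided permutation test over the 6 libraries gave p = 0.1, the smallest value that 3 against 3 libraries allow. Without a filter on low values limma gave Saa2 an adjusted p of 0.333. For Saa1 the ratio of summed fragments, pregnant over non-pregnant, was 2.27 with a 95% counting interval from 0.707 to 8.47 (exact binomial), so no difference was detectable at this depth. The exact permutation test gave p = 0.2 for Saa1 and p = 1 for Saa3.

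Saa1 and Saa2 are copies, and part of their reads cannot be assigned by sequence. Their longest protein-coding transcripts were 87.3% identical, and 14.8% of all 50-base windows of the Saa1 transcript (609 bases) also occur in a transcript of another serum amyloid gene. For Saa2 the share was 9.12%, and for Saa3 it was 0%. The sources used here do not say how reads that match several genes were treated, so the split between Saa1 and Saa2 is uncertain. The exon length behind the Saa1 values is 2478 bases, since GENCODE models with retained introns add to it, and FPKM per messenger RNA is understated accordingly. Exon length also exceeds the longest protein-coding transcript for Saa2 (2518 against 652 bases) and Saa3 (2606 against 2200 bases). For Lcn2, with an exon length of 2623 bases, this comparison was not made. No other annotated gene model overlaps any of the 9 members.

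Orosomucoid 1, a lipid- and drug-binding plasma protein also called alpha-1-acid glycoprotein, had the smallest p of the members. Orm1 (ENSMUSG00000039196; chromosome 4, 63344560 to 63348163) stood at 0.541, 1.28 and 0.843 FPKM in the non-pregnant and 1.94, 2.17 and 1.68 FPKM in the pregnant libraries. All 3 pregnant libraries were above all 3 non-pregnant ones, as were 9.9% of all tested genes, while 12.2% of all tested genes lay wholly lower. The log2 difference was 0.65 ± 0.155 (SE), with a 95% interval from 0.29 to 1.01 and an unadjusted limma p of 0.00333, and it did not pass over all genes (limma adjusted p = 0.279). Behind these values are 12, 30 and 23 against 40, 52 and 33 fragments, a ratio of sums of 2.18 with a 95% counting interval from 1.61 to 2.99. Without non-pregnant library 2 Orm1 passed (log2 difference 0.80, limma adjusted p = 0.0409), and it passed with library weights (adjusted p = 0.00707). Both settings called more genes of every kind: 91 higher and 42 lower without that library, and 720 and 581 with library weights. Its difference stayed above 0 with other pseudocounts, upper-quartile and quantile scaling, library weights, limma-voom and each library left out, and over all 18 alternatives its adjusted p ran from 0.00707 to 0.694.

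Orm2, the neighbouring copy, was close to the limit of detection. Its fragments numbered 3, 4 and 3 outside pregnancy and 4, 2 and 0 in pregnancy, for values from 0 to 0.194 FPKM (ENSMUSG00000061540; chromosome 4, 63362449 to 63365878). The groups overlapped, and the ratio of summed fragments was 0.681 with a 95% counting interval from 0.204 to 2.07, which overlaps that of Orm1, and a difference between the copies was not tested. The Orm1 and Orm2 transcripts were 91% identical, with 20.4% of the 50-base windows of Orm1 and 21.8% of those of Orm2 found in a transcript of another orosomucoid gene, so here too the split between copies is uncertain.

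Haptoglobin, which binds free haemoglobin in plasma, was low and did not differ beyond its spread. Hp (ENSMUSG00000031722; chromosome 8, 109575128 to 109579172) stood at 2.52, 4.72 and 1.52 FPKM in the non-pregnant and 4.49, 3.67 and 2.36 FPKM in the pregnant libraries. The pregnant values lay within the range of the non-pregnant ones, with the highest and the lowest of all 6 in non-pregnant libraries 2 and 3. The log2 difference was 0.25 ± 0.298 (SE), with a 95% interval from -0.44 to 0.95 (limma adjusted p = 0.695). Without non-pregnant library 3 it was -0.02, so its direction rests on that library.

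Hp and Orm1 transcripts can also come from hepatocytes, whose markers were present in every library. Summed over 12 hepatocyte markers the level was 2441 to 3022 FPKM in the non-pregnant and 2434 to 2767 FPKM in the pregnant libraries, nearly all of it Alb (2327 ± 310 and 2147 ± 110 FPKM; SD, n = 3 each) and Ttr. As means over all 6 libraries, Serpina1c stood at 41.9, Hnf4a at 25.2, Tat at 13.0 and Apoa2 at 10.3 FPKM. Lower still were Apoa1 (4.58 FPKM), Cyp2e1 (2.18), Cps1 (1.77), Fgb (1.56), Tdo2 (0.645) and Slc10a1 (0.576). None of the 12 was at 0 in any library, 3 of the 10 tested lay above 0 and 7 below, and 0 passed. In the 2 settings that called Orm1 higher, hepatocyte markers were called higher too, 1 without non-pregnant library 2 and 2 with library weights, and 0 lower. Of the 10 tested markers 4 (Apoa1, Apoa2, Cps1 and Cyp2e1) were highest in non-pregnant library 2, where Hp was highest. Another 4 (Alb, Ttr, Tat and Hnf4a) were highest in non-pregnant library 3, where Hp was lowest. Of all tested genes 15.6% were highest in non-pregnant library 2 and 35.8% in non-pregnant library 3. Alb stood 306 to 694 times above Apoa1, 507 to 1677 times above Hp and 964 to 3650 times above Orm1 within a library (FPKM ratios). In these bulk libraries fewer cells of a type and less RNA per cell cannot be told apart. The part of hepatocyte RNA in Hp and Orm1 was not tested, nor was it for the other members, Pigr and Lcn2 included.

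Lipocalin 2, the siderophore-binding defence protein, varied most among the abundant members, and 1 library carried most of that variation. Lcn2 (ENSMUSG00000026822; chromosome 2, 32384633 to 32388252) stood at 37.8, 25.5 and 95.3 FPKM in the non-pregnant and 27.6, 28.0 and 19.1 FPKM in the pregnant libraries. Non-pregnant library 3 was 3.45 times the mean of the other 5, and without it the groups still overlapped. The non-pregnant mean was 52.9 ± 37.3 FPKM and the pregnant mean 24.9 ± 5.02 FPKM (SD, n = 3 each), a ratio of 0.471. The log2 difference was -0.86 ± 0.421 (SE), with a 95% interval from -1.83 to 0.12 (limma adjusted p = 0.408). It was -0.33 without non-pregnant library 3 (adjusted p = 0.542) and -1.26 without non-pregnant library 2 (adjusted p = 0.0959).

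Lcn2 is also a granule protein of neutrophils, whose listed markers lay between 0 and 1.53 FPKM. Of 10 neutrophil markers Ly6g and Mmp8 were at 0 in all 6 libraries. The S100a8 and S100a9 genes, which encode the calprotectin subunits abundant in neutrophils, reached at most 0.151 and 0.432 FPKM. The neutrophil marker with the highest level was Elane, neutrophil elastase, at 0.685 ± 0.137 and 1.42 ± 0.106 FPKM (SD, n = 3 each), which did not pass (limma adjusted p = 0.235). Csf3r, below the filter, stood at 0.339, 0.165 and 0.866 FPKM outside pregnancy and at 0.499, 0.619 and 0.241 FPKM in pregnancy. Within each group its libraries ranked in the same order as for Lcn2, and Csf3r was named after its values were seen. Elane had that order outside pregnancy alone and Ngp in pregnancy alone, and the other listed markers had it in neither group. Outside pregnancy Mpo was lowest in library 3 (0.058 FPKM), and S100a8 was at 0 there. By library the neutrophil list summed to 1.55, 0.958 and 1.96 FPKM outside pregnancy, the same order as Lcn2, and to 3.003, 2.61 and 2.01 FPKM in pregnancy, and the part of neutrophil RNA in Lcn2 was not tested.

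The polymeric immunoglobulin receptor, which carries IgA across the bile duct epithelium, was the most abundant member and the most even. Pigr (ENSMUSG00000026417; chromosome 1, 130826684 to 130852249) stood at 213, 216 and 224 FPKM in the non-pregnant and 213, 231 and 157 FPKM in the pregnant libraries. Pregnant library 3 was the lowest and pregnant library 2 the highest, so the groups overlapped. The non-pregnant mean was 218 ± 5.32 FPKM and the pregnant mean 200.2 ± 38.8 FPKM (SD, n = 3 each). The log2 difference was -0.14 ± 0.146 (SE), with a 95% interval from -0.48 to 0.20 (limma adjusted p = 0.663). Without pregnant library 3 it was 0.03. Between 15952 and 31708 fragments lie behind each value, so spread between libraries, not counting, sets this interval.

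Defb1, a beta-defensin made by many epithelia, was found in the non-pregnant group alone and almost wholly in 1 library. Its fragments numbered 1, 1 and 14 outside pregnancy and 0, 0 and 0 in pregnancy, with 0.456 FPKM in non-pregnant library 3 (ENSMUSG00000044748; chromosome 8, 21776599 to 21795185). Against a limit of 3 fragments over the pregnant group the summed non-pregnant level was at least 4.70-fold higher, with its 16 fragments taken as exact. Without non-pregnant library 3 only 2 fragments remained, under that limit, and no fold can be given. The exact two-sided permutation test gave p = 0.1, the smallest this design allows, and limma without a filter on low values gave an adjusted p of 0.509.

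**Figure D2:**
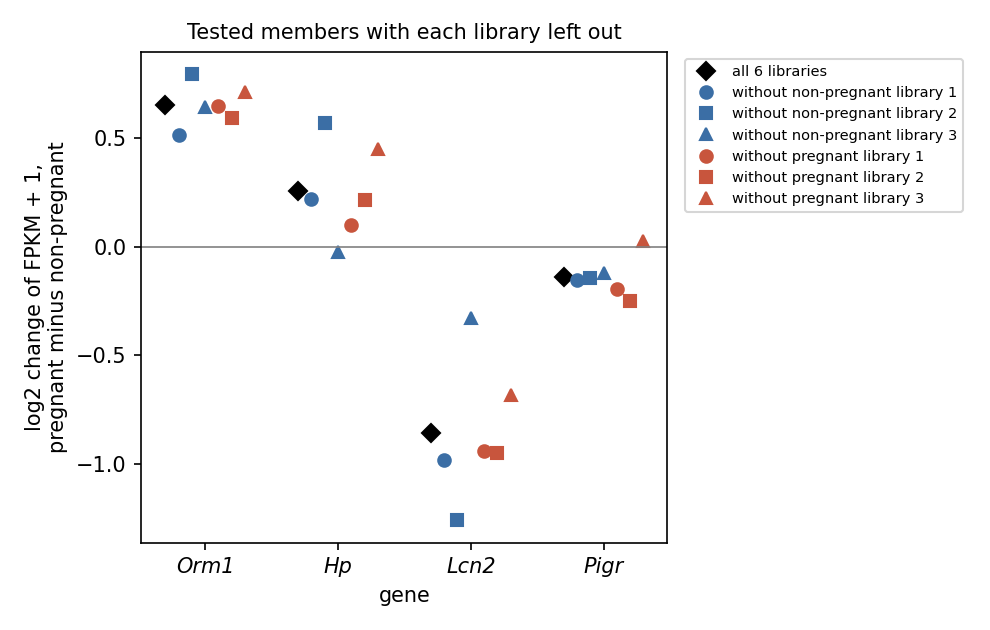
The log2 difference of FPKM + 1, pregnant minus non-pregnant (vertical axis), of the 4 tested members, with all 6 libraries (black) and with each library left out (blue for non-pregnant, red for pregnant). Orm1 stayed above 0 and Lcn2 below 0 throughout, Hp fell to -0.02 without non-pregnant library 3 and Pigr rose to 0.03 without pregnant library 3.

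The genes with the profile most like a member were taken for the most abundant tested gene of each role, by Pearson correlation of log2(FPKM + 1) over the 6 libraries. For Hp these were Crtap (r = 0.988), Hs1bp3 (r = 0.985) and Apof (r = 0.984), and 33 of 11411 genes reached 0.95. For Pigr they were Rnf130 (r = 0.983), Mrm2 (r = 0.977) and Krtap17-1 (r = 0.971), and 15 genes reached 0.95. All points share the same 6 libraries and their depth, and the Pigr matches share its low value in pregnant library 3, as in Rnf130, which stood at 14.0 FPKM there and at 16.5 to 16.8 FPKM elsewhere.

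Other acute-phase plasma protein genes gave no joint direction, and 0 of 18 tested passed. Of the 25 listed, 9 tested genes lay above 0 and 9 below, with a median log2 difference of -0.06 beside -0.02 over all tested genes. At an unadjusted limma p under 0.05 there were 0 higher and 5 lower. Those 5 were Hamp, Fgg, Lrg1, Fga and Hamp2, the last named outside the rule for named genes, after its values were seen. Hamp, which encodes the iron hormone hepcidin, stood at 37.6, 22.9 and 46.7 FPKM in the non-pregnant and 16.9, 17.1 and 12.9 FPKM in the pregnant libraries (log2 difference -1.10 ± 0.238, SE; limma adjusted p = 0.251). The groups did not overlap for Hamp, and without non-pregnant library 2 it passed (log2 difference -1.38, adjusted p = 0.0238).

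The fibrinogen chain genes, whose products assemble into 1 clotting protein, were unequal in level and in direction. Fga stood at 66.1 ± 30.0 and 32.9 ± 7.21 FPKM and Fgg at 36.6 ± 6.35 and 23.8 ± 4.64 FPKM (SD, n = 3 each), lower in all 3 pregnant libraries, with limma adjusted p of 0.301 and 0.295. Fgb stood at 1.38 ± 0.370 and 1.73 ± 0.516 FPKM (adjusted p = 0.607). Fga was between 17.8 and 87.5 times Fgb within a library, with the highest ratio in non-pregnant library 3, which also held the most Lcn2. Lrg1, a leucine-rich plasma glycoprotein, stood at 8.23 ± 2.48 and 5.19 ± 0.0762 FPKM (adjusted p = 0.301). Non-pregnant library 3 held the highest value for 7 of the 18 tested genes, and for 35.8% of all tested genes.

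**Figure D3:**
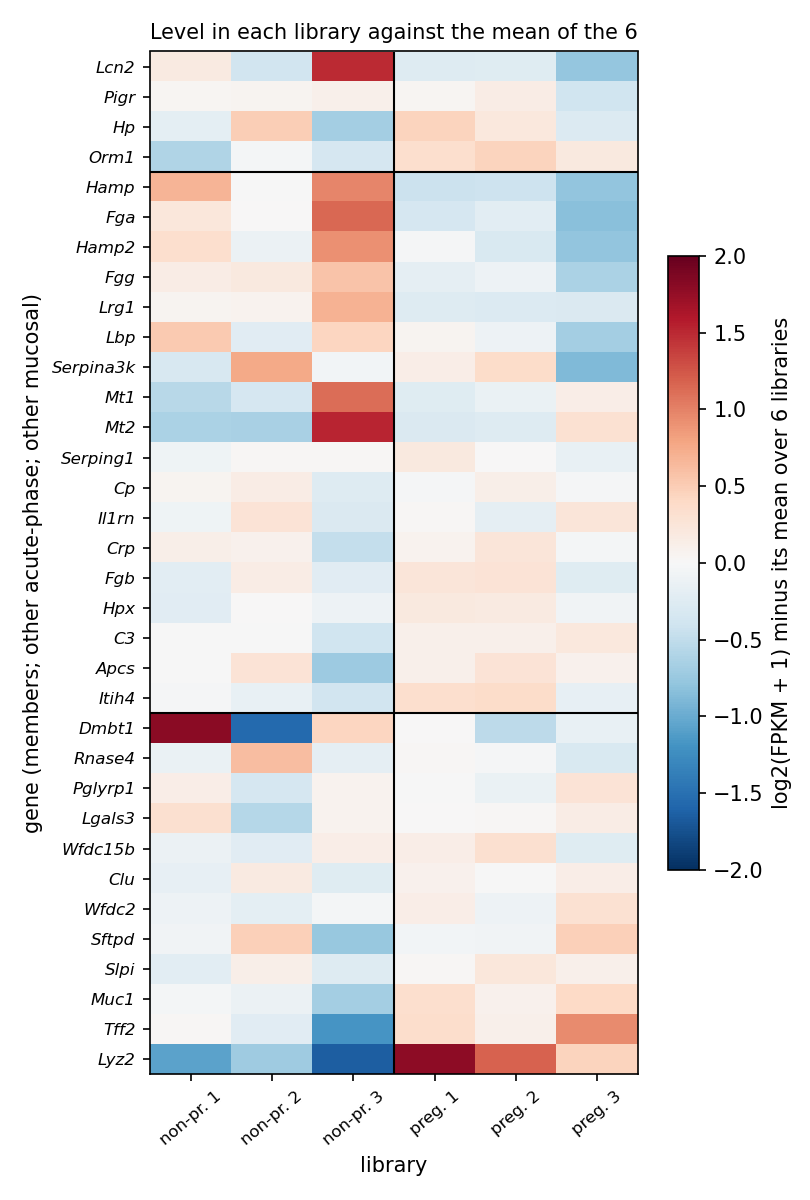
Colour shows log2(FPKM + 1) minus its mean over the 6 libraries, from -2 (blue) to 2 (red), for the tested members, the other acute-phase genes and the other mucosal genes (rows, in that order) by library (columns). Lcn2, Fga, Hamp, Mt1 and Mt2 have their highest value in non-pregnant library 3.

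Among 9 negative acute-phase genes, whose plasma proteins fall in inflammation, 1 passed. Ahsg, which encodes fetuin-A, went from 561 ± 89.7 to 186 ± 39.7 FPKM (SD, n = 3 each; log2 difference -1.60 ± 0.183, SE; limma adjusted p = 0.0368). That call was lost with any single library left out other than non-pregnant library 2, with adjusted p up to 0.2395, and also with the replicate block (0.111), without a filter on low values (0.137) and with limma-voom (0.0887). Of the 9 genes 2 lay above 0 and 7 below, with a median of -0.11. Serpina6, which encodes corticosteroid-binding globulin, stood at 0.912, 1.296 and 0.371 FPKM in the non-pregnant and 3.60, 3.47 and 2.09 FPKM in the pregnant libraries (adjusted p = 0.225). The groups did not overlap for Serpina6, and without non-pregnant library 2 it passed (adjusted p = 0.0402). Rbp4, which carries retinol, stood at 59.7 ± 8.59 and 42.2 ± 6.69 FPKM and Ttr, which carries thyroxine, at 383 ± 7.12 and 333 ± 59.9 FPKM, with adjusted p of 0.298 and 0.502.

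**Figure D4:**
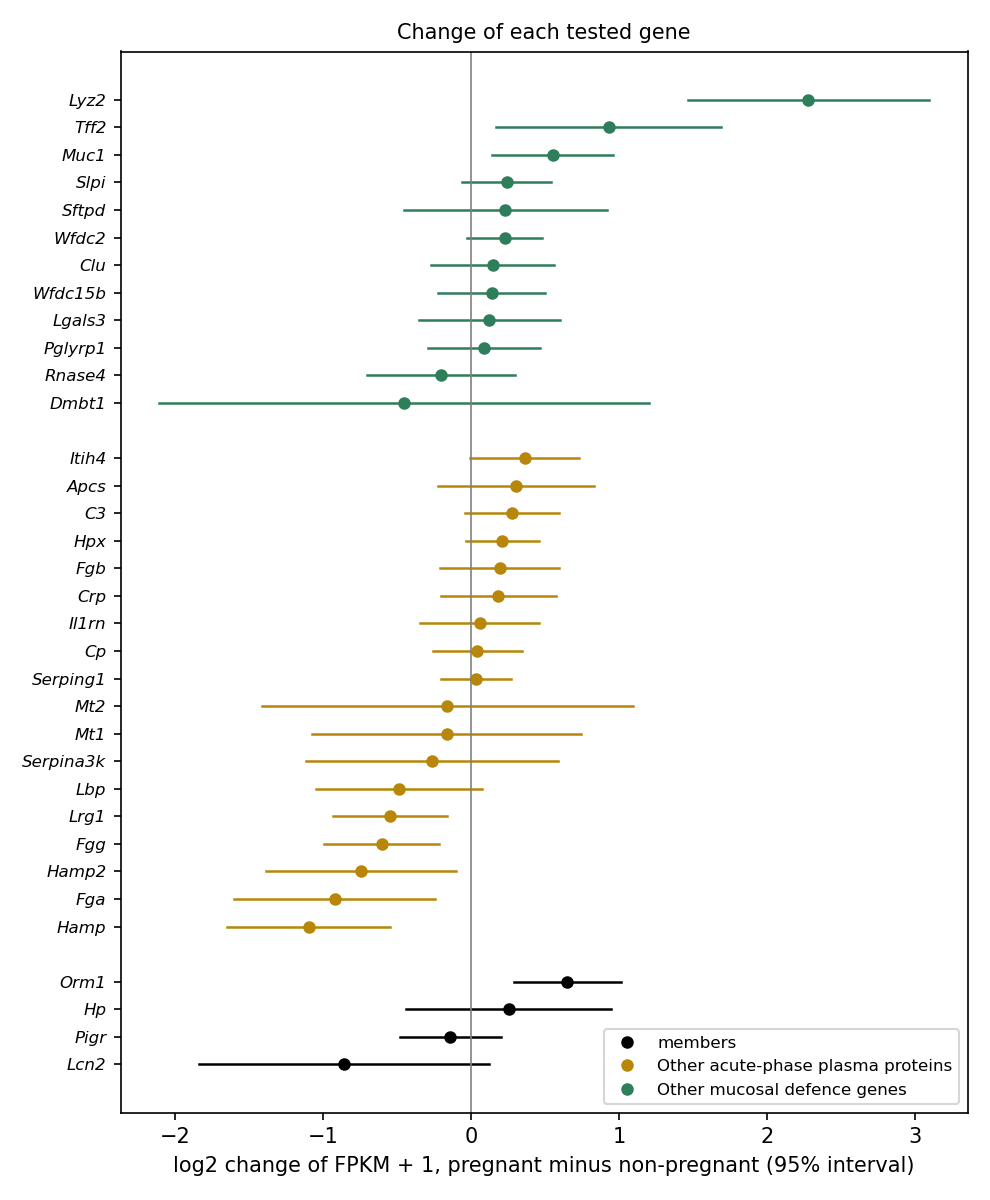
The log2 difference of FPKM + 1, pregnant minus non-pregnant (horizontal axis), with its 95% limma interval, for the tested members (black), other acute-phase genes (gold) and other mucosal genes (green). Among the members the interval of Orm1, from 0.29 to 1.01, is the one that does not reach 0, before adjustment over all genes.

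Of 36 other mucosal defence genes 12 were tested, 10 lay above 0 and 2 below, 0 passed, and the median log2 difference was 0.19. Over all tested genes 44.8% lay above 0 and 55.2% below. These directions leave out 24 genes below the filter, 8 of them at 0 in all 6 libraries. Of those 24, Duoxa2 alone separated the groups. It was lower in pregnancy, at 0.592, 0.395 and 0.499 against 0.307, 0.325 and 0.199 FPKM. All 4 other listed beta-defensin genes (Defb2, Defb3, Defb4 and Defb14) and the 3 listed Reg3 lectin genes were at 0 in all 6 libraries. Muc1, a membrane mucin, stood at 123, 116 and 78.4 FPKM in the non-pregnant and 160.0, 134 and 166 FPKM in the pregnant libraries (limma adjusted p = 0.301). Tff2, a trefoil peptide that protects mucosa, stood at 24.0, 19.9 and 9.77 against 30.3, 25.3 and 46.2 FPKM (adjusted p = 0.322). Both were higher in every pregnant library than in any non-pregnant one without passing. Wfdc2, an epithelial protease-inhibitor-like protein, stood at 29.7 ± 1.55 and 35.1 ± 4.85 FPKM (adjusted p = 0.40).

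Lyz2, the lysozyme of macrophages and other myeloid cells, stood at 0.849, 1.36 and 0.237 FPKM in the non-pregnant and 12.4, 7.80 and 4.23 FPKM in the pregnant libraries (limma adjusted p = 0.124; 0.0351 without non-pregnant library 2). The 11 listed Kupffer cell and macrophage markers summed to between 21.2 and 51.7 FPKM in the non-pregnant and between 66.0 and 135 FPKM in the pregnant libraries, none was at 0 in any library, and 9 of 9 tested lay above 0, of which 3 passed (Cd5l, C1qa and C1qc, limma adjusted p = 0.0357 each). The 3 became 6 when non-pregnant library 2 and 7 when pregnant library 3 was left out, 0 when any of the other 4 was, and 0 without a filter on low values, with robust empirical Bayes and with limma-voom. They became 6 with the replicate block and 8 with library weights. Cd5l, a protein secreted by macrophages, stood at 0.994, 1.40 and 0.363 FPKM outside pregnancy and at 20.1, 14.7 and 9.29 FPKM in pregnancy. The part of macrophage RNA in Lyz2 was not tested. The most abundant of these markers, Csf1r, stood at 32.5 ± 12.4 and 34.7 ± 4.17 FPKM (adjusted p = 0.783).

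Of 12 receptors and partners of the members 6 were tested, with 2 above 0, 4 below and 0 past the threshold. Of the 6 below the filter, Fpr1 and Jchain were higher in every pregnant library than in any non-pregnant one. The share of all genes below the filter that separate in this way was not counted. Fpr1 had 0, 0 and 1 against 28, 12 and 9 fragments, and Jchain 0, 2 and 4 against 6, 16 and 6. For Ccr6, Fpr2, Lrp2 and Tnfsf13b the groups overlapped. Cd163, the macrophage receptor for haptoglobin bound to haemoglobin, stood at 0.109, 0.242 and 0.120 FPKM in the non-pregnant and 3.12, 2.40 and 1.15 FPKM in the pregnant libraries (limma adjusted p = 0.124), beside the macrophage sums given above. It passed without non-pregnant library 2 (adjusted p = 0.0423) and without pregnant library 3 (0.0166). Scarb1, a lipoprotein receptor that also binds serum amyloid A, stood at 9.38 ± 0.947 and 7.89 ± 0.612 FPKM and Tlr2, a Toll-like receptor, at 2.25 ± 0.304 and 2.77 ± 0.0770 FPKM (adjusted p of 0.372 and 0.380). Tnfsf13, which encodes the IgA-promoting cytokine APRIL, stood at 4.97 ± 0.702 and 4.26 ± 0.367 FPKM (adjusted p = 0.456). Jchain, which joins the IgA dimers that Pigr carries and is made by plasma cells, reached at most 0.206 FPKM, and 6 B and plasma cell markers summed to 2.44 to 3.23 FPKM in the non-pregnant and 3.67 to 4.33 FPKM in the pregnant libraries.

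The 25 listed receptors, signalling genes, inhibitors and transcription factors that act on acute-phase genes all reached the level required for testing, and 0 passed. Of these 11 lay above 0 and 14 below, with a median log2 difference of -0.11. Socs3, the feedback inhibitor of interleukin 6 signalling, stood at 70.1, 70.9 and 66.1 FPKM in the non-pregnant and 56.5, 54.3 and 54.0 FPKM in the pregnant libraries (log2 difference -0.32 ± 0.0721, SE; limma adjusted p = 0.268). The groups did not overlap for Socs3, nor for Cebpd, a C/EBP factor, at 3.92 ± 0.448 and 3.02 ± 0.270 FPKM (adjusted p = 0.315). On the side of interleukin 1 and NF-kB, Il1r1 stood at 9.63 ± 1.67 and 12.2 ± 0.233 FPKM and Nfkbia, the NF-kB inhibitor, at 289.6 ± 22.0 and 349.7 ± 14.6 FPKM (SD, n = 3 each; adjusted p of 0.322 and 0.334), each higher in every pregnant library. Other listed receptors and factors went both ways in log2 difference. Below 0 were Il1rap (-0.12), Tnfrsf1a (-0.24) and Il17ra (-0.11). Above 0 were Il17rc (0.15), Myd88 (0.05), Nfkb1 (0.08), Rela (0.10) and Nfkbiz (0.35).

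**Figure D5:**
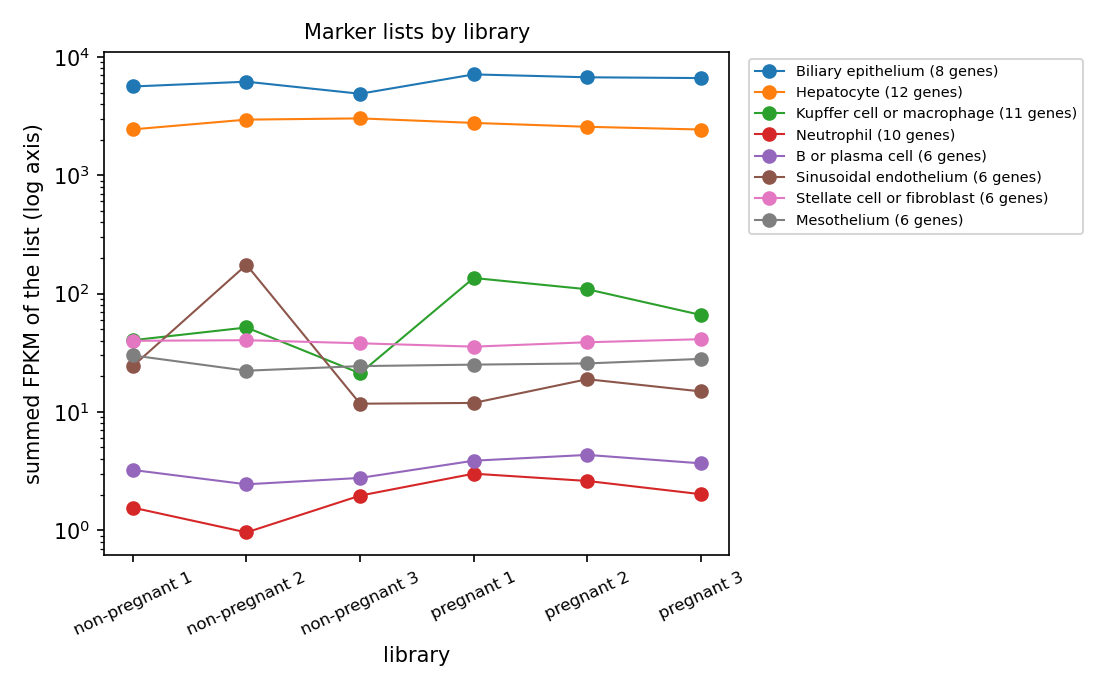
Summed FPKM of each marker list (vertical axis, log scale) in the 6 libraries (horizontal axis). Biliary markers are highest in every library, macrophage markers run from 21.2 to 51.7 FPKM in non-pregnant and from 66.0 to 135 FPKM in pregnant libraries, and endothelial markers reach 175 FPKM in non-pregnant library 2.

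All libraries carried the markers of biliary epithelium, 8 of 8 tested and none at 0, with sums of 4880.5 to 6173 FPKM in the non-pregnant and 6624 to 7114 FPKM in the pregnant libraries, most of it Spp1 (osteopontin). Library totals, as fragments recovered from FPKM and exon length, lay between 24448312 and 34285323. Non-pregnant libraries 2 and 3 stood apart from the rest. The first principal component of the tested genes (50.3% of the variance) set library 3 apart and the second (28.3%) library 2. Library 2 held 175 FPKM of 6 sinusoidal endothelial markers, against 11.7 to 24.4 FPKM in the other 5, with Stab2 at 46.8 FPKM. Markers of stellate cells (Rgs5 highest) and mesothelium (Gpm6a highest) were present at sums of 35.6 to 41.1 FPKM and 22.3 to 30.0 FPKM, with 0 called, and their part in the members' values was not tested.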

How the data were processed

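Per the labels' protocols, libraries of sorted biliary epithelial cells were made from total RNA with the KAPA RNA HyperPrep kit, which here removes ribosomal RNA (RiboErase). The authors deposited FPKM values, with all 6 columns used. Tools and build are named in the submitters' processing notes without roles: STAR 2.7.9a, HTSeq 0.13.5, DESeq2 1.30.1, cutadapt 3.4 and mm10. Median-of-ratios factors computed on the deposited values were 1 in every library, so the values were already on that scale and this alternative changes nothing. FPKM times GENCODE vM21 union exon length gave whole multiples of a per-library step for 98.5% of values above 0 (tolerance 0.01). These recovered fragments served counting intervals (95%, exact binomial) and limits of 3 fragments, which cover counting error only, since fragments carried no molecular identifiers.

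FPKM is not a count, so limma 3.58.1 (R 4.3.3, trended empirical Bayes, two-sided) was run on log2(FPKM + 1), which understates changes of low genes, for genes whose 6-library mean reached 1 FPKM. Exact permutation tests used scipy 1.17.1, alignments Biopython 1.88. Beyond the 9 members, the text names up to 4 tested genes per list with the smallest p, genes past the threshold and the most abundant marker per cell type; others were chosen after their values were seen. Members and lists were chosen with earlier results of these data known. Groups and replicate numbers come from the sample titles; the descriptions number non-pregnant library 3 as 4. Alternatives were other pseudocounts, filters and scalings, a replicate block, empirical Bayes settings, library weights, limma-voom and leaving out each library.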

Additional observations from a re-analysis of the deposited data

How the results depend on the processing

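The direction of Orm1 and of Lcn2 held with other pseudocounts, upper-quartile and quantile scaling, library weights, limma-voom and each library left out. Both filters, the replicate block and robust or untrended empirical Bayes leave the estimate as it is by construction, and median-of-ratios factors were 1. Members called higher were 0 as reported, 1 (Orm1) with library weights, and from 0 to 1 with each library left out, and members called lower were 0 throughout. Over all genes the 7 higher and 3 lower calls became 0 and 0 without a filter on low values (limma; 1387 higher and 871 lower at an unadjusted p under 0.05), 2 higher with robust empirical Bayes, 720 and 581 with library weights, 1 and 0 with limma-voom on recovered fragments, and from 0 to 91 higher and from 0 to 42 lower with each library left out. With the replicate block they were 13 and 0. Deviations of same-numbered libraries from their group means had correlations of 0.07, 0.02 and -0.14 for numbers 1 to 3. With 3 libraries per group these correlations cannot show whether a shared number marks a shared experiment. The block changed no member's call, while Serpina6 and Lyz2 passed with it (limma adjusted p = 0.0416 and 0.0157). Library weights also called Hamp, Lrg1, Fga, Serpina6, Lyz2, Cd163, Socs3, Cebpd, Il1r1 and Elane (the cause was not tested). Directions turned for Alb with library weights (0.084; the cause was not tested) and, with a library left out, for Hp (log2 differences from -0.023 without non-pregnant library 3 to 0.568), Pigr (from -0.252 to 0.027 without pregnant library 3) and Csf1r (from -0.170 without non-pregnant library 3 to 0.405). Depth limits Saa1, Saa2, Saa3, Orm2 and Defb1, and the spread of non-pregnant libraries limits Lcn2 and Hp.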
